A study of Mus musculus with 16 samples.

Results

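Of the 1901 amplicon sequence variants (ASVs, distinct 16S rRNA gene sequences) in the deposited table, 12 were assigned to 3 genera that live in the mucus or on the epithelium of the mouse gut. Helicobacter had 6 ASVs, Mucispirillum 4 and Candidatus_Arthromitus, the segmented filamentous bacteria, 2. All ASVs with these names in the genus field of the taxonomy were taken, without regard to their counts. The genera themselves were chosen with earlier results of these data known. Wild-type (WT) and MERTK knockout (MERTK-KO) mice, both C57BL/6J, 8 to 10 weeks old and kept specific pathogen-free, drank sterile water or 2.5% DSS (dextran sulfate sodium) over 7 days. Colons were taken on day 8 from 4 mice in each of the groups WT, WT+DSS, MERTK-KO and MERTK-KO+DSS. Macrophages use the receptor tyrosine kinase MERTK to engulf dying cells, and DSS is a chemical that damages the lining of the colon and so gives mice colitis. The labels describe the knockout without naming a cell type, and the sources used here give neither cages nor litters, so genotype and the source of the mice cannot be told apart.

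Helicobacter species are spiral, flagellated bacteria that colonise the mucus and crypts of the caecum and colon, and several of them worsen colitis in immunodeficient mice. Mucispirillum, whose named species is M. schaedleri, is a spiral anaerobe of the mucus layer. It respires nitrate and becomes more abundant in inflamed guts. Segmented filamentous bacteria anchor themselves to the epithelium, mainly of the ileum, and in mice induce T helper cells of the interleukin-17 type and immunoglobulin A.

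Every library held 96469 counts, so a count is given below out of that total, and a share is percent of it. The floor used for a group without counts was 3 counts per library, a share of 0.00311%, and it covers counting error only. Shares are coupled, since a rise of some bacteria lowers the share of the others, and fewer bacteria of a kind cannot be told apart from more of the rest. No member ASV was named to species except ASV24 and ASV145, listed as Mucispirillum_schaedleri. The Helicobacter ASVs were all of the phylum Campilobacterota and the Mucispirillum ASVs all of the Deferribacterota in the table, whereas Candidatus_Arthromitus held 56.2% of the counts of Clostridiaceae. Counts of bacteria do not measure Mertk or colon cells, so neither genotype nor tissue could be checked. Adjusted p-values are from edgeR's quasi-likelihood test over all 122 genus-level groups or all 1056 ASVs that passed a filter on low counts, with calls at a false discovery rate (FDR) of 0.05.

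The 3 genera differed in level by orders of magnitude within groups, and their ranks differed between genotypes. Helicobacter was the 5th most abundant genus-level group in WT and in WT+DSS mice, the 41st in MERTK-KO+DSS mice and the 94th in MERTK-KO mice. Mucispirillum ranked 8 in MERTK-KO+DSS, 22 in WT+DSS, 26 in MERTK-KO and 35 in WT mice. Candidatus_Arthromitus ranked 52 in MERTK-KO, 79 in WT and 76 in MERTK-KO+DSS mice and had no count in WT+DSS mice. Together the 3 genera held 6.28% ± 2.87 of counts in WT, 5.41% ± 2.54 in WT+DSS, 0.465% ± 0.228 in MERTK-KO and 3.07% ± 1.04 in MERTK-KO+DSS mice (mean ± SD, n = 4). The summed share was thus made mostly of Helicobacter in WT mice and mostly of Mucispirillum in MERTK-KO mice.

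**Figure D1:**
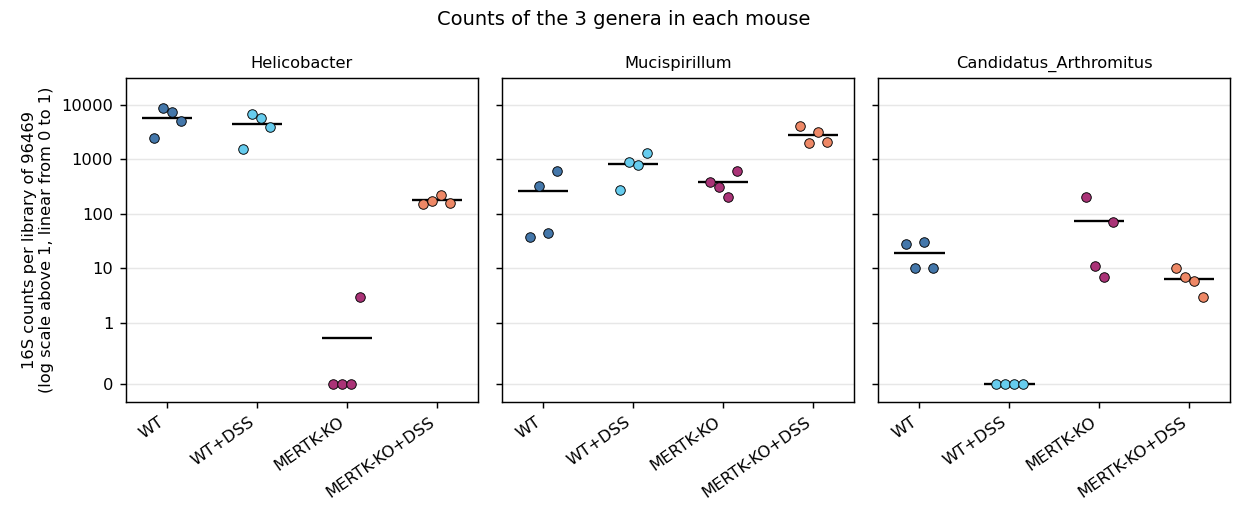
Counts of each genus in each mouse (y axis, 16S counts per library of 96469, log scale above 1), by group (x axis), with points for the 4 mice and a line for their mean. Helicobacter lies between 1552 and 8585 in all WT and WT+DSS mice and at 0 to 3 in MERTK-KO mice. Mucispirillum is highest in MERTK-KO+DSS mice and Candidatus_Arthromitus is at 0 in WT+DSS mice.

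Helicobacter was a major genus of WT mice with or without DSS and was at or near 0 in MERTK-KO mice on water. WT mice had 2397, 8585, 7235 and 4903 counts, a mean share of 5.99% ± 2.82 (SD, n = 4). WT+DSS mice had 1552, 6656, 5545 and 3935 counts, or 4.58% ± 2.30. These groups overlapped widely, and the share in DSS mice was 1.31-fold lower with an adjusted p of 0.704 (log2 fold change -0.39, SE 0.65). The sign of that small difference was not fixed, since centred log-ratios gave a log2 difference of 0.17. In 3 MERTK-KO mice no Helicobacter count was found, and mouse 4 had 3 counts, a share of 0.00311% (exact 95% interval 0.000641% to 0.00909%).

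Helicobacter was lower in MERTK-KO than in WT mice on water (adjusted p = 1.56e-07), and every MERTK-KO mouse lay below every WT mouse. No fold is given for the genus, because the MERTK-KO mean was under 3 counts per library. The 3 counts of mouse 4 belonged to ASV1572, which had no count in any other library. MERTK-KO+DSS mice had 150, 169, 224 and 158 counts, or 0.182% ± 0.0346. They lay above all MERTK-KO mice (adjusted p = 1.84e-05) and below all WT+DSS mice, 25.2-fold lower in the mean (log2 fold change -4.66, SE 0.76, adjusted p = 0.000616). The difference between the responses of the 2 genotypes to DSS passed as well (interaction, adjusted p = 0.000157). Both the rise in MERTK-KO mice and the interaction ended when low counts shared with the other DSS group were removed (adjusted p = 0.125 and 0.367). That setting is described further on. It left no Helicobacter count in MERTK-KO+DSS mice. The sign turned in both, on the 3 counts of MERTK-KO mouse 4 alone.

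A single ASV made up most of Helicobacter wherever the genus was common. ASV4 had 2246, 8379, 6886 and 4531 counts in WT mice and 1433, 5954, 5189 and 3576 in WT+DSS mice. In MERTK-KO mice it had no count in any of the 4, which put it at least 1837-fold lower than in WT mice (against 3 counts per library, adjusted p = 1.17e-07). MERTK-KO+DSS mice had 139, 160, 197 and 145 counts, a range that touched no other group. ASV4 was at least 53.4-fold higher there than in MERTK-KO mice (adjusted p = 7.96e-06) and 25.2-fold lower than in WT+DSS mice (adjusted p = 0.000262). The first of these calls rests wholly on counts at 3.97% of the WT+DSS mean, and with those set to 0 ASV4 had no count in either MERTK-KO group and no test. In WT+DSS against WT mice the log2 fold change of ASV4 was -0.45 (SE 0.53, adjusted p = 0.688), and TMM scaling, DESeq2 and centred log-ratios each gave the opposite sign.

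ASV136 was the minor Helicobacter variant and followed ASV4 in where it was found. It had 53, 169, 349 and 372 counts in WT mice, 117, 701, 356 and 357 in WT+DSS mice, 0 in every MERTK-KO mouse and 11, 9, 27 and 13 in MERTK-KO+DSS mice. ASV136 was at least 78.6-fold lower in MERTK-KO than in WT mice (adjusted p = 4.71e-05), at least 5-fold higher in MERTK-KO+DSS than in MERTK-KO mice (adjusted p = 0.00205) and 25.5-fold lower in MERTK-KO+DSS than in WT+DSS mice (adjusted p = 0.00398). Its higher level in MERTK-KO+DSS mice rests likewise on counts at 3.92% of the WT+DSS mean and had no test with those set to 0. Its count was 2.02% to 8.21% of that of ASV4 in WT mice, 6.86% to 11.8% in WT+DSS mice and 5.63% to 13.7% in MERTK-KO+DSS mice, ranges that overlap. With ASV4 it accounted for nearly the whole genus: ASV4 held 92.4% to 97.6% of Helicobacter counts in WT, 89.5% to 93.6% in WT+DSS and 87.9% to 94.7% in MERTK-KO+DSS mice.

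ASV769, another Helicobacter variant, was found in WT mice 1 and 2 only, with 98 and 37 counts, and in WT+DSS mouse 4 with 2 counts. It was called lower in MERTK-KO than in WT mice (at least 11.2-fold, adjusted p = 0.0319), but the WT mice themselves overlapped the MERTK-KO mice at 0. Without WT mouse 1 the bound was 4.11-fold, and the call ended with DESeq2, centred log-ratios, the replicate block and without any 1 MERTK-KO mouse (adjusted p = 0.0562 to 0.134). The other Helicobacter ASVs, ASV1572, ASV1640 and ASV1674, had 3, 1 and 2 counts in 1 library each and did not pass the filter.

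Mucispirillum was present in all 16 mice and was highest in MERTK-KO+DSS mice. WT mice had 37, 329, 44 and 616 counts, a mean of 257 ± 276 (SD, n = 4), with an SD above the mean. WT+DSS mice had 272, 869, 772 and 1285 counts, or 799.5 ± 416. MERTK-KO mice had 386, 307, 205 and 606 counts, or 376 ± 170.3, inside the range of the WT mice. MERTK-KO+DSS mice had 4066, 1941, 3085 and 2037 counts, or 2782 ± 1000.5 and a mean share of 2.88% ± 1.04, above every mouse of the other 3 groups.

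At the level of the genus, 1 of the pairwise comparisons of Mucispirillum passed. It rose 7.40-fold from MERTK-KO to MERTK-KO+DSS mice (log2 fold change 2.89, SE 0.81, adjusted p = 0.0101). In WT+DSS against WT mice it was 3.12-fold higher in the mean, with an adjusted p of 0.133. Whether that comparison passed depended on the setting. Without WT mouse 4, the highest of its group, the difference was 5.85-fold with an adjusted p of 0.0251. On all mice DESeq2 and centred log-ratios gave 0.0467 and 0.0122. On water MERTK-KO mice had 1.47 times the share of WT mice (adjusted p = 0.615, 2.75 times without WT mouse 4, and an adjusted p of 0.0343 on centred log-ratios). Under DSS MERTK-KO mice had 3.48 times the share of WT mice, and although the counts did not overlap the adjusted p was 0.092 in the fit of all groups and 0.0273 in a fit of these groups alone. The interaction did not pass (log2 1.25, SE 1.07, adjusted p = 0.587).

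**Figure D2:**
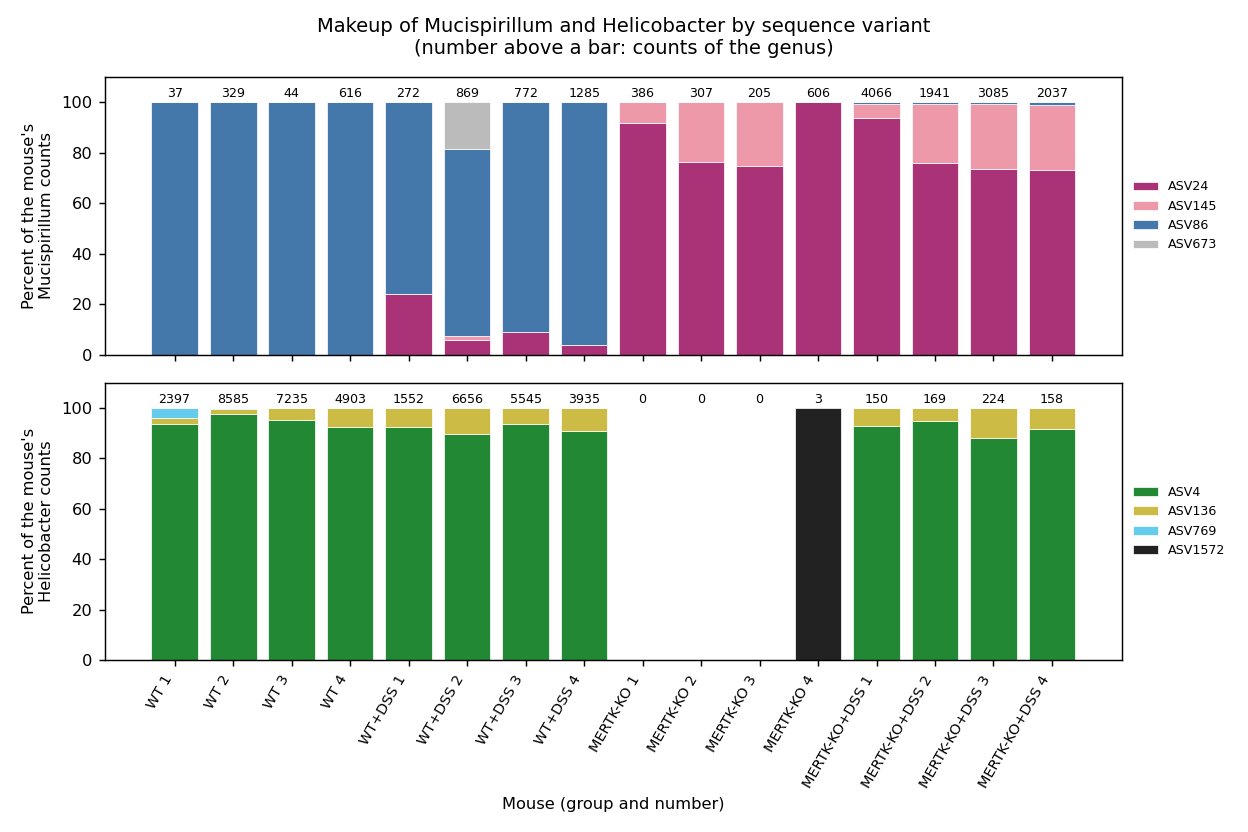
Percent of each mouse's Mucispirillum counts (top) and Helicobacter counts (bottom) held by each ASV (y axis), with the 16 mice on the x axis and the genus count above each bar. WT mice hold ASV86 alone and MERTK-KO mice ASV24 and ASV145 alone, while Helicobacter is mostly ASV4 in every WT, WT+DSS and MERTK-KO+DSS mouse. ASV1640 and ASV1674, with 1 and 2 counts, are not drawn.

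The similar genus totals on water hid different sequence variants. In WT mice ASV86, listed as an uncultured bacterium, held 100% of Mucispirillum counts in all 4 mice. In MERTK-KO mice ASV86 had no count, and ASV24 held 74.6% to 100% and ASV145 the rest. ASV24 in turn had no count in any WT mouse and 354, 235, 153 and 606 counts in the MERTK-KO mice. ASV24 was at least 112-fold higher (adjusted p = 1.17e-06) and ASV86 at least 85.5-fold lower (adjusted p = 0.000114, at least 45.6-fold without WT mouse 4) in MERTK-KO than in WT mice. ASV145 had 32, 72, 52 and 0 counts in MERTK-KO mice and none in WT mice, at least 13-fold higher (adjusted p = 0.00974), though mouse 4 had 0 like the WT mice.

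The split of variants by genotype was still there under DSS, with low counts of the other variant added. ASV86 had 207, 646, 701 and 1237 counts in WT+DSS mice and 23, 14, 19 and 22 in MERTK-KO+DSS mice, 35.8-fold lower in the latter (log2 fold change -5.15, SE 1.08, adjusted p = 0.00459). ASV24 had 3816, 1472, 2275 and 1494 counts in MERTK-KO+DSS mice and 65, 51, 71 and 48 in WT+DSS mice, 38.5-fold higher in the former (log2 fold change 5.27, SE 0.69, adjusted p = 0.000262). ASV145 had 227, 455, 791 and 521 counts in MERTK-KO+DSS mice. In WT+DSS mice it was found in mouse 2 alone, with 12 counts, and the call of a higher level in MERTK-KO+DSS mice had an adjusted p of 0.014. In WT+DSS mice ASV86 held 74.3% to 96.3% of the genus and in MERTK-KO+DSS mice 0.566% to 1.08%.

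Each genotype's own Mucispirillum variants were higher in the mean on DSS, and the tests differed. ASV24 rose 6.72-fold from MERTK-KO to MERTK-KO+DSS mice (log2 fold change 2.75, SE 0.61, adjusted p = 0.0105, or 0.0517 with no filter on low counts), and the lowest DSS mouse had 1472 counts against 606 in the highest water mouse. ASV145 was 12.8-fold higher in MERTK-KO+DSS than in MERTK-KO mice with no overlap, but its adjusted p was 0.146 (0.0173 on centred log-ratios). ASV86 was 2.72-fold higher in WT+DSS than in WT mice (adjusted p = 0.317, 5.11-fold without WT mouse 4, and an adjusted p of 0.0222 on centred log-ratios). The ratio of ASV145 to ASV24 varied between mice of a group: it was 0% to 34% in MERTK-KO mice and 5.95% to 34.9% in MERTK-KO+DSS mice.

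Low counts of the variant of the other genotype were found under DSS, at 2.59% (ASV24) and 2.79% (ASV86) of the mean in the other DSS group, and the part of carry-over between libraries in them was not tested. ASV24 went from no count in WT to 58.8 ± 11 counts in WT+DSS mice, at least 19.6-fold higher (SD, n = 4, adjusted p = 3.19e-05). ASV86 went from no count in MERTK-KO to 19.5 ± 4.04 counts in MERTK-KO+DSS mice, at least 6.5-fold higher (adjusted p = 0.00338). With such low counts set to 0 neither had a count left to test. The interaction passed for ASV24 (adjusted p = 0.00125), for ASV86 (0.0357), and for the Helicobacter variants ASV4 (1.83e-05) and ASV136 (0.013). All 4 of these calls ended with the low counts set to 0 (adjusted p = 1.00 each), and the sign turned for ASV24, ASV86 and ASV136. That of ASV86 was also lost with TMM scaling, on centred log-ratios and without any 1 of 11 mice (adjusted p = 0.0513 to 0.117). The last Mucispirillum variant, ASV673, had 160 counts in WT+DSS mouse 2, where it held 18.4% of the genus, and none in any other mouse, so it was not tested.

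**Figure D3:**
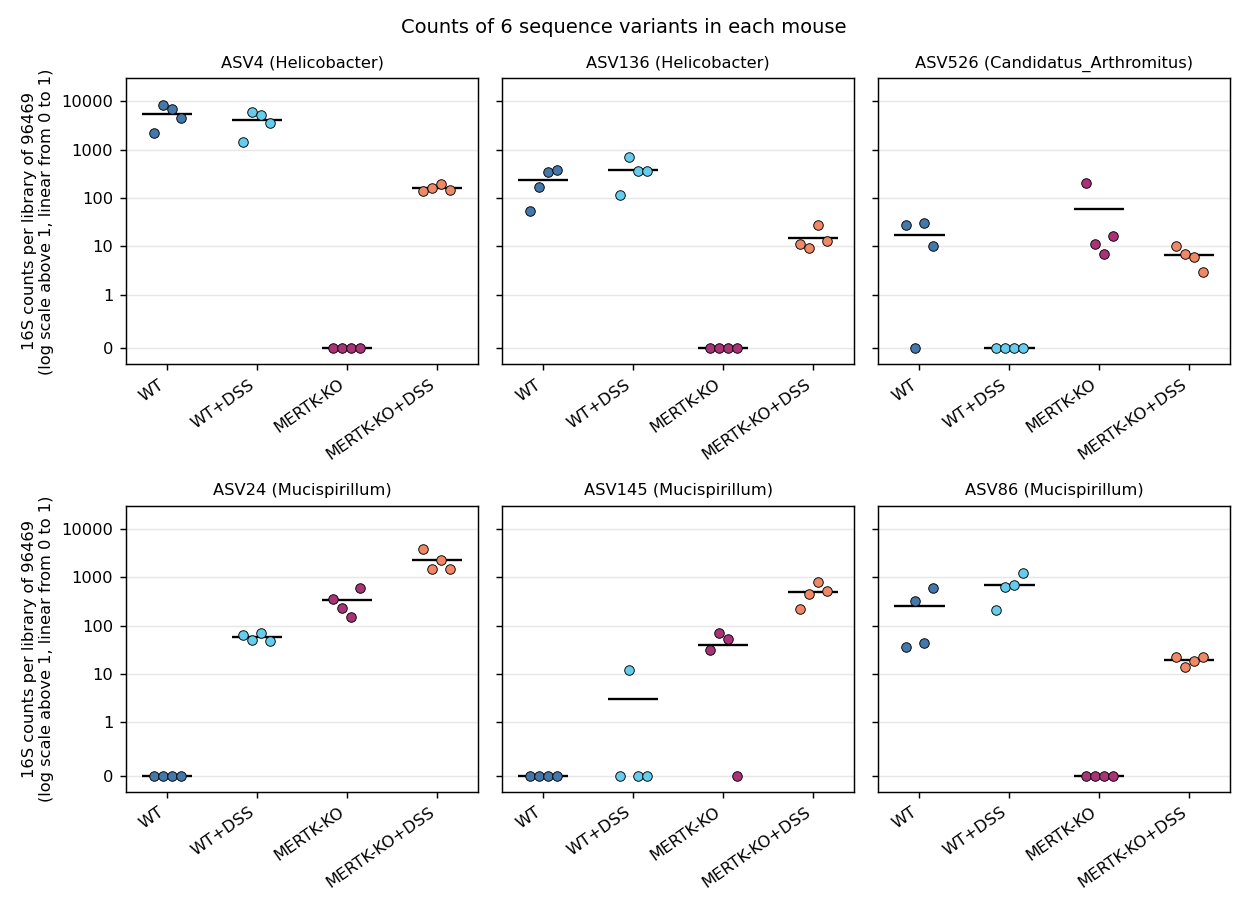
Counts of 6 ASVs in each mouse (y axis, 16S counts per library of 96469, log scale above 1), by group (x axis), with points for the 4 mice and a line for their mean. ASV4, ASV136 and ASV86 are at 0 in MERTK-KO mice and ASV24 and ASV145 at 0 in WT mice. In the DSS group of the genotype that lacked them on water, ASV4, ASV136, ASV86 and ASV24 have from 9 to 197 counts in every mouse, and ASV526 is at 0 in WT+DSS mice.

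Candidatus_Arthromitus was rare in all groups and fell under DSS in both genotypes, in MERTK-KO mice by a call that did not hold without some of the mice. WT mice had 28, 10, 30 and 10 counts (0.0202% ± 0.0114) and WT+DSS mice had none. MERTK-KO mice had 201, 11, 7 and 70 counts (0.0749% ± 0.0939), with mouse 1 at 0.208% (exact 95% interval 0.181% to 0.239%). MERTK-KO+DSS mice had 10, 7, 6 and 3 counts (0.00674% ± 0.00299). The counts of WT mice lay wholly above those of WT+DSS mice, while the MERTK-KO groups overlapped between 7 and 10 counts.

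In WT mice the fall was at least 6.5-fold (adjusted p = 0.00301, range 0.00199 to 0.00886 without any 1 mouse). In MERTK-KO mice it was 11.1-fold (log2 fold change -3.45, SE 1.11, adjusted p = 0.0251), but 4.51-fold without MERTK-KO mouse 1 (adjusted p = 0.127). The call also ended without MERTK-KO+DSS mouse 2, 3 or 4 (adjusted p = 0.0503, 0.0645 and 0.0681). Under DSS the genus was called higher in MERTK-KO than in WT mice, at least 2.17-fold (adjusted p = 0.0164), on counts of 3 to 10 against 0. MERTK-KO and WT mice on water differed by 3.71-fold with an adjusted p of 0.172 (1.5-fold without MERTK-KO mouse 1), and the interaction had an adjusted p of 0.198.

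Both Candidatus_Arthromitus variants were seen on water. ASV526 carried the genus in 10 of the 12 mice that had it, with no second variant. In WT mouse 2 all 10 counts were of ASV922, and in MERTK-KO mouse 4 ASV922 had 54 counts beside 16 of ASV526. ASV922 had no count in any DSS mouse and was in too few libraries to be tested. ASV526 had 28, 0, 30 and 10 counts in WT mice and 201, 11, 7 and 16 in MERTK-KO mice. It was called lower in WT+DSS than in WT mice (at least 5.67-fold, adjusted p = 0.0251) and higher in MERTK-KO+DSS than in WT+DSS mice (at least 2.17-fold, adjusted p = 0.0276), and both calls ended under some alternatives (adjusted p = 0.0507 to 0.0663). Its 9.04-fold lower mean in MERTK-KO+DSS than in MERTK-KO mice did not pass (adjusted p = 0.19), and was 1.74-fold without MERTK-KO mouse 1.

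The low counts of Helicobacter in MERTK-KO+DSS mice were of a size seen in many other ASVs of that group. ASV4 in MERTK-KO+DSS mice was at 3.97% of its WT+DSS mean, ASV136 at 3.92% and ASV86 at 2.79%. The same ratio was taken for all 85 ASVs with no count in MERTK-KO mice and a mean of at least 100 counts in WT+DSS mice, and its median was 2.79% (quartiles 1.17% and 4.05%). Of these 85, 66 had a count in MERTK-KO+DSS mice and 73 were under 5%. The ASVs without a count there are among the 73 and enter the median and quartiles. The members are in the 85 too, and the median is the value of ASV86 itself. ASV4 had 62 of the 85 below it. In the other direction ASV24 in WT+DSS mice was at 2.59% of its MERTK-KO+DSS mean and ASV145 at 0.602%, where 70 ASVs with no count in WT mice had a median of 2.13% (quartiles 0.631% and 3.13%).

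**Figure D4:**
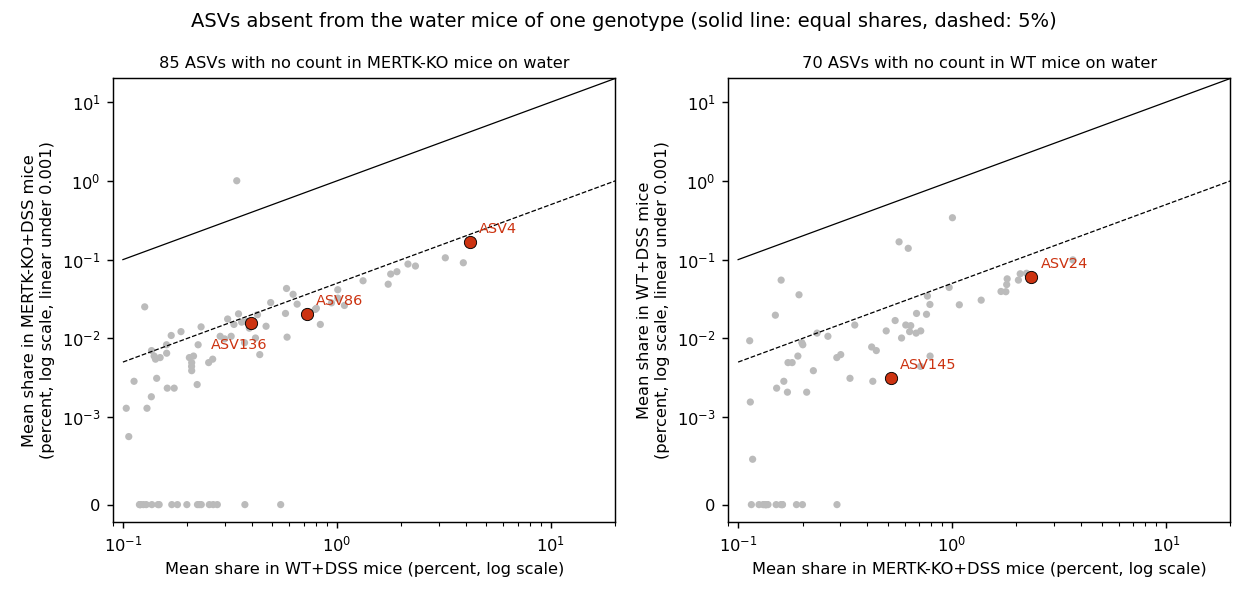
Mean share in one DSS group (y axis, percent, log scale, linear under 0.001) against that in the other DSS group (x axis, percent, log scale) of ASVs with no count in the water mice of the y-axis genotype and at least 100 counts in the mean of the x-axis group. Grey points are other ASVs and red points the members, the solid line marks equal shares and the dashed line 5%. The 5 members lie below the dashed line, as do 73 of 85 ASVs on the left and 63 of 70 on the right.

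As an alternative, an ASV was set to 0 in a DSS group if its mean there came to less than 5% of its mean in the DSS group of the other genotype. This removed 1.89% of the counts of MERTK-KO+DSS and 1.21% of those of WT+DSS mice. Among the members it removed ASV4, ASV136 and ASV86 from MERTK-KO+DSS and ASV24 and ASV145 from WT+DSS mice. Helicobacter then had no count in MERTK-KO+DSS mice. Mucispirillum was still called higher in MERTK-KO+DSS than in MERTK-KO mice. It lost only the 14 to 23 counts per mouse of ASV86 there, so that this call could hardly change. The lower Helicobacter in MERTK-KO+DSS than in WT+DSS mice could only grow under this setting. No Candidatus_Arthromitus ASV could be touched by it, since WT+DSS mice had no count of that genus. None of the member ASVs then passed the interaction, against 4 before.

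Of the 12 member ASVs, 7 passed the filter of at least 10 counts and 3 libraries and were tested. In MERTK-KO against WT mice 2 were called higher and 4 lower, where 20.8% of all ASVs tested were called higher and 32.0% lower. The counts of these groups did not overlap for 4 of the 7 (37.6% of all ASVs). In MERTK-KO+DSS against WT+DSS mice 3 were higher and 3 lower (19.0% and 18.7% of all), and 6 did not overlap (28.3%).

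In MERTK-KO+DSS against MERTK-KO mice 4 of the 7 were called higher and 0 lower (7.2% and 6.16% of all ASVs), and 5 did not overlap (20.5%). With the low counts set to 0, 1 of the 7, ASV24, was called higher, since the calls of ASV4, ASV86 and ASV136 rest on those counts alone. The lack of overlap of ASV4, ASV86 and ASV136 rests on the low counts alone as well. In WT+DSS against WT mice 1 was higher, ASV24, and 1 lower, ASV526 (7.86% and 9.0% of all), and 1 did not overlap (20.3%). The call of ASV24 there and its lack of overlap also rest on the low counts alone. In the interaction 3 were called higher and 1, ASV24, lower (3.12% and 2.46% of all), and none with the low counts set to 0. Median log2 ratios were taken with group means under 3 counts set to 3 counts. For the 7 the median was 2.70 in MERTK-KO+DSS against MERTK-KO mice and -3.49 in MERTK-KO against WT mice. All 1056 ASVs had medians of 0 in both. In the other pairwise comparisons the median was 0, for the 7 and for all ASVs alike. The 2.70 is the ratio of ASV86, the middle value only while the low counts of ASV4, ASV86 and ASV136 are kept. The -3.49 is the ratio of ASV769, which had 98, 37, 0 and 0 counts in WT mice and none in MERTK-KO mice.

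At the level of genera, 0 of the 3 were called higher and 1 lower in WT+DSS against WT mice, where 11.5% of the 122 genus-level groups were called higher and 20.5% lower, and 1 did not overlap (36.9% of all). In MERTK-KO+DSS against MERTK-KO mice 2 were called higher and 1 lower (17.2% and 15.6% of all), and 2 did not overlap (27.0%). Helicobacter is among both through its low counts alone. With those set to 0 its call ended (adjusted p = 0.125) and its counts overlapped. In MERTK-KO against WT mice 0 were higher and 1, Helicobacter, lower (13.9% and 26.2% of all), and 1 did not overlap (37.7%). Under DSS Candidatus_Arthromitus was higher and Helicobacter lower in MERTK-KO mice (8.2% and 12.3% of all), and all 3 genera did not overlap (25.4%). In the interaction Helicobacter was called higher and none lower (4.92% and 4.1% of all). That call too ended with the low counts set to 0 (adjusted p = 0.367). With means under 3 counts set to 3, the median log2 ratios of the 3 genera were -0.39, 2.89, 0.55 and 1.12 in the same order of pairwise comparisons, against -0.19, 0.00, -0.06 and 0.00 over all groups. The 2.89 is the ratio of Mucispirillum, the middle value only while the low counts of Helicobacter are kept.

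The genus-level groups with the most similar profile over the 16 mice were found from shares scaled to their highest mouse, by the mean absolute difference among groups with at least 0.1% in a group mean. For Helicobacter these were Alloprevotella (0.153, where the middle value over 67 groups was 0.376), Tuzzerella (0.165) and Prevotellaceae_NK3B31_group (0.182). Alloprevotella, an anaerobe of the Prevotellaceae, had 2.74% in WT, 2.58% in WT+DSS, no count in MERTK-KO and 0.0879% in MERTK-KO+DSS mice. For Mucispirillum they were Escherichia-Shigella (0.118, middle value 0.321), Prevotellaceae_UCG-001 (0.124) and UCG-005 (0.14). Escherichia-Shigella, facultative anaerobes that bloom in inflamed guts, had 0.0174%, 0.0231%, 0.014% and 0.532% in WT, WT+DSS, MERTK-KO and MERTK-KO+DSS mice. For Candidatus_Arthromitus they were A2 (0.0586, middle value 0.316 over 68 groups), [Eubacterium]_ventriosum_group (0.0905) and [Eubacterium]_xylanophilum_group (0.0975), each with no count in any DSS mouse. These values describe profiles over mice that share groups and a fixed total, and they carry no test.

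Of 11 other genera listed for mucin degradation or for a link with mucus or colitis, 8 were in the table and tested. Shares in brackets are those of all 122 genus-level groups called higher and lower. In WT+DSS against WT mice 2 were higher (Akkermansia and Bacteroides) and 1 lower (Ruminococcus) (11.5% and 20.5%). The Akkermansia counts of WT+DSS mice were of ASV102, at 4.49% of its MERTK-KO+DSS mean, so that they too are among those set to 0 under the 5% limit. In MERTK-KO+DSS against MERTK-KO mice 2 were higher (Akkermansia and Escherichia-Shigella) and 1 lower (Bifidobacterium) (17.2% and 15.6%). On water 1 was higher in MERTK-KO than in WT mice (Bilophila, which respires sulfite from taurine) and 2 were lower (Parabacteroides and Ruminococcus) (13.9% and 26.2%). Under DSS 2 were higher in MERTK-KO than in WT mice (Akkermansia and Escherichia-Shigella) and none lower (8.2% and 12.3%). In the interaction 2 were higher (Ruminococcus, adjusted p = 0.0238, and Escherichia-Shigella, 0.0291) and none lower (4.92% and 4.1%). Akkermansia, a mucin degrader, stood at 0%, 0.0345%, 0.000777% and 0.767% in WT, WT+DSS, MERTK-KO and MERTK-KO+DSS mice, and was thus highest in the group where Mucispirillum was highest.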

How the data were processed

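Colon samples of 16 mice, 4 per group, were profiled by 16S sequencing, per the labels and the series design. Groups were taken from the sample titles, which name each sample as an individual. The authors deposited 2 tables with the same counts of 1901 ASVs, with a total of 96469 counts in every library; the sources used here do not give the earlier depth, the amplified region, the ASV caller or the taxonomy database. Distal colon was rinsed and RNA was extracted for mRNA libraries per the labels' protocols, and the submitters' processing notes list GRCm38 and mm10. None of this describes a 16S table, so the template (DNA or RNA) and the material (tissue or content) are unknown. ASV sequences were not used here.

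Counts were summed per genus, with ASVs lacking a genus name under their lowest named rank (146 groups, 114 of them named genera). Features with at least 10 counts and counts in at least 3 libraries were kept. Groups were compared by the quasi-likelihood test of edgeR 4.0.16 (robust glmQLFit) under R 4.3.3. Library totals were the only scaling, the 16 libraries entered a joint model of the 4 group means, and p-values were adjusted by Benjamini-Hochberg over all features tested (FDR 0.05). The SE is the log2 fold change over the root of the F statistic. A fold is a ratio of mean shares. For a group at 0, the fold uses 3 counts per library in its place and is a lower bound; group means between 0 and 3 counts get no fold. The procedure was checked on simulated counts with known changes in the WT+DSS group. No feature was made absent from a whole group there, so the check does not cover calls against a group at 0. Intervals of single mice are exact binomial at 95%, and intervals and floors cover counting error only.

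Alternatives were TMM scaling, DESeq2 1.42.0 (size factors from positive counts), limma 3.58.1 on centred log-ratios with a pseudocount of 0.5, the replicate number as a block, no filter on low counts, a minimum of 6 libraries, only the groups compared, low counts beside the other DSS group set to 0 (under 5% of its mean), and each mouse left out. Python 3.11.15, numpy 2.4.6, scipy 1.17.1, pandas 2.3.3 and matplotlib 3.10.9 were used. The members, the list of other genera and the alternatives were chosen with earlier results of these data known. Named ASVs are those with at least 0.1% in a group mean or called in any comparison. ASVs beyond that rule, and single mice, are named to account for every member.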

Additional observations from a re-analysis of the deposited data

Results flagged for a closer look

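Among 31 sets of 4 mice with any spread, for the 3 genera and the 7 tested ASVs, 4 had 1 mouse far from the other 3 (Dixon's criterion), where chance flags about 1 in 20. That rate does not apply to 3 of the 4, sets with 3 mice at 0, in which any count is far from the others. MERTK-KO mouse 4 had 3 counts of Helicobacter and the other MERTK-KO mice none. WT+DSS mouse 2 had 12 counts of ASV145 (Mucispirillum) and the others none. MERTK-KO mouse 1 had 201 counts of ASV526 (Candidatus_Arthromitus) against 7 to 16 in the others. WT+DSS mouse 4 had 2 counts of ASV769 (Helicobacter) and the others none.

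The response to DSS was called different between genotypes in edgeR's interaction test for Helicobacter (adjusted p = 0.000157), ASV4 (1.83e-05), ASV136 (0.013), ASV24 (0.00125) and ASV86 (0.0357). With low counts shared with the other DSS group set to 0, all of these ended (Helicobacter 0.367 and the ASVs 1.00 each), and the ASV86 call also ended with TMM, on centred log-ratios and without any 1 of 11 mice. In each the variant had no count in the water mice of a genotype, or, for the genus, 3 counts in all.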

How the results depend on the processing

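Adjusted p-values of the 3 genera and 7 ASVs kept direction and side of the threshold in 338 of 369 results over 8 settings. Without 1 mouse they did so in 747 of 771. Where they did not, the cause was not tested unless named. Results left without a value are not in these totals. Among them, with low counts set to 0, are the DSS calls of ASV4, ASV86 and ASV136 in MERTK-KO mice and of ASV24 in WT mice. On centred log-ratios Helicobacter in WT+DSS against WT mice turned (adjusted p = 0.852), as did the Mucispirillum interaction (0.884), ASV4 in WT+DSS against WT mice (0.943) and the ASV145 interaction (0.268), while Mucispirillum passed in WT+DSS against WT mice (0.0122) and in MERTK-KO against WT mice (0.0343). That setting moved the median log2 difference of all genus-level groups by 0.91 in MERTK-KO against WT mice and by 0.44 in WT+DSS against WT mice. ASV4 in WT+DSS against WT mice also turned with TMM (0.955) and DESeq2 (1.00), and DESeq2 called Mucispirillum there (0.0467). A fit of the groups compared called Mucispirillum under DSS (0.0273) and 1 member ASV, not 2, in WT+DSS against WT mice.

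With low counts shared with the other DSS group set to 0, Helicobacter turned in MERTK-KO+DSS against MERTK-KO mice (0.125) and in the interaction (0.367), as did the interactions of ASV24, ASV86, ASV136 and ASV145 (1.00 each), which by construction lost the counts they rested on. The turned signs of Helicobacter came from the 3 counts of MERTK-KO mouse 4 alone. Member ASVs called fell from 2 to 1 (WT+DSS against WT), from 4 to 1 (MERTK-KO+DSS against MERTK-KO) and from 4 to 0 (interaction). ASV4, ASV86 and ASV136 in MERTK-KO and ASV24 and ASV145 in WT mice had no value for DSS. All ASVs called went from 141 to 64 (MERTK-KO+DSS against MERTK-KO) and from 59 to 23 (interaction).

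Counts of ASVs called on centred log-ratios were 314 against 178 (WT+DSS against WT), 296 against 141 (MERTK-KO+DSS against MERTK-KO) and 299 against 59 (interaction), and of genus-level groups 27 against 11 (interaction). DESeq2 called 131 in the ASV interaction. A minimum of 6 libraries gave 116 (WT+DSS against WT) and 357 against 558 (MERTK-KO against WT), from fewer ASVs tested.

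Correlations of same-numbered mice in their deviations from group means were -0.185 to 0.19. They were taken over all genus-level groups that passed the filter, rare ones included, so they cannot exclude pairing in single genera. Helicobacter and Mucispirillum each ranked the same-numbered mice alike in WT and WT+DSS mice. Between MERTK-KO and MERTK-KO+DSS mice the order differed for Mucispirillum and Candidatus_Arthromitus. Whether the replicate numbers pair the mice is thus not settled. With the replicate block the fall of Candidatus_Arthromitus in MERTK-KO mice had an adjusted p of 0.097, the ASV145 interaction turned (1.00), member ASVs called in WT+DSS against WT mice went from 2 to 1, and all ASVs called were 81 (WT+DSS against WT), 368 (MERTK-KO against WT) and 231 against 398 (under DSS).

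Without 1 mouse, adjusted p-values ranged from 0.0251 to 0.269 for Mucispirillum in WT+DSS against WT mice, from 0.0139 to 0.127 for Candidatus_Arthromitus in MERTK-KO+DSS against MERTK-KO mice, from 0.796 to 1.00 for the ASV145 interaction (turned without WT+DSS mouse 2) and from 0.253 to 0.81 for ASV526 in MERTK-KO against WT mice (turned without MERTK-KO mouse 1). Genus-level interaction calls ranged from 7 to 19. ASVs called ranged from 114 (without WT+DSS mouse 1) to 186 in WT+DSS against WT mice and from 88 to 147 in MERTK-KO+DSS against MERTK-KO mice. Member ASVs called in WT+DSS against WT mice were 1 to 2. Counts of a few per library, as in Candidatus_Arthromitus, leave folds near the floor.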
